A study of Mus musculus with 2 samples.

Results

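The genes described here are 38 regulators and target genes of the tumour suppressor p53, compared between 2 mouse osteosarcoma cell lines. They were listed by name, and they were read from the probe sets whose only gene symbol is one of these names. All 38 genes had such a probe set, which came to 75 of the 45037 non-control probe sets on each array. The Dunn line is the parental, non-metastatic line, and LM8 is a highly metastatic subline of it. Both were untreated, were grown in medium with 10% serum and 1% non-essential amino acids, and gave 10 µg of total RNA for 1 Affymetrix mouse genome array each. With 1 array per line no test of a difference was possible, so every fold below describes these 2 arrays, whose number limits the precision. The labels do not say whether either line is a single clone, and the gene that encodes p53 was not analysed here.

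p53 is a transcription factor that cells stabilise after DNA damage, oncogene activity and other stress. It is held in check by the ubiquitin ligase Mdm2 and its relative Mdm4, and it switches on genes that stop the cell cycle, repair DNA, adjust metabolism or trigger cell death. Many of its targets also answer to other stress and growth signals, and loss of p53 function is frequent in osteosarcoma.

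Signals are MAS5 intensities, which estimate the abundance of a transcript from the brightness of its probes on a linear scale. A signal under the median of its array, 21.1 in Dunn and 19.0 in LM8, was read as background and set to that floor for ratios. A gene was measured if at least 1 of its probe sets exceeded the floor on at least 1 array, and it took the ratio of the brightest such probe set. Of the 38 genes, 34 were measured, through 64 of the 75 probe sets. The other 4 (Trp73, Rprm, Perp and Pmaip1) lay under both floors. Where 1 array was at its floor, the fold is a lower bound and is written as at least N-fold.

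Among the members, genes at least 2-fold lower in the metastatic line outnumbered those at least 2-fold higher. Most of the lower ones were arrest and metabolic targets, groups that also made up much of the list. Below 0 lay 24 log2 ratios of members and above it 10, beside 6545 and 5285 of all measured genes. Among the 34 measured genes, 13 were at least 2-fold lower in LM8 (38.2%), while 8.84% of all 11830 measured genes were. At least 2-fold higher were 2 of the 34 (5.88%), beside 6.51% of all measured genes, and 19 lay between. By role, the 2-fold lower genes were 6 of 12 arrest targets, 4 of 6 metabolic and stress targets, 2 of 8 death targets, 1 of 4 repair targets and 0 of 4 regulators. Each gene was counted under 1 role, although some, such as Trp53inp1, act in several, so these counts depend on the grouping. At least 4-fold lower were 5 members, Trp53i11, Ephx1, Gadd45a, Trp53inp1 and Sesn3, beside 1.43% of all genes, and 0 members were 4-fold higher, beside 1.18%. The median log2 ratio of LM8 over Dunn was -0.25 over the members and -0.08 over all measured genes, so the middle of the list moved far less than its lower end. Since the genes were listed with earlier results of these data known, these shares describe the list and test nothing.

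**Figure D1:**
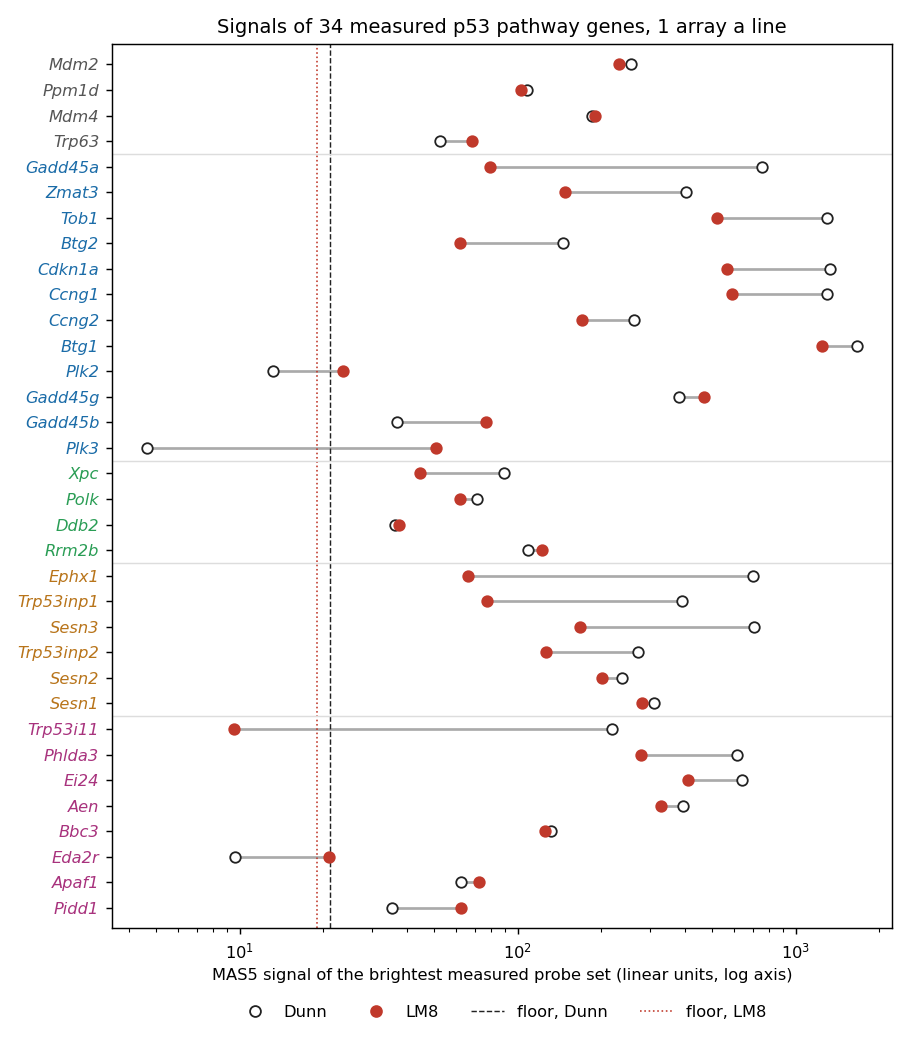
MAS5 signal of the brightest measured probe set of each of 34 p53 pathway genes (log axis, linear signal units), with open circles for Dunn and filled circles for LM8, 1 array each, grouped by role and coloured by role on the gene labels. The vertical lines are the floors of 21.1 (Dunn) and 19.0 (LM8). Gadd45a, Ephx1, Trp53inp1, Sesn3 and Trp53i11 have the widest gaps among the genes with Dunn as the brighter line, and the regulators at the top have nearly overlapping points. Levels are comparable within a gene, not between genes.

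Proliferation genes, other cell types and RNA quality were read on the same arrays. Of 19 measured proliferation genes, 14 exceeded 2-fold in the direction of LM8 (73.7%, beside 6.51% of all measured genes). In the direction of Dunn 0 did, beside 8.84% of all measured genes, and the median log2 ratio was 1.69. Ccna2, Bub1, Cdc20 and Birc5 led them, at log2 ratios of 2.58, 2.51, 2.23 and 2.06. Of 9 listed osteoblast lineage markers, all but Bglap had a probe set of their own. Of these 8 markers, 6 exceeded the floor in both lines and the late markers Dmp1 and Phex in neither. Their summed signal was 14507 in Dunn and 13966 in LM8, of which Col1a2 alone gave 8783 and 7349. Ibsp and Pth1r were 2-fold lower (33.3% of the 6 measured markers, beside 8.84% of all measured genes). Col1a1, Alpl and Sp7 lay on the other side of 0, at log2 ratios of 0.56, 0.46 and 0.11, and were named after their values were seen. Macrophage markers exceeded the floor for 10 of 12 genes in Dunn and 4 of 12 in LM8. Their summed signal was 1356 in Dunn and 543 in LM8, and Fcgr3 and Ptprc lay under both floors. The 4 markers 2-fold lower were Cd74, Lyz1, Csf1r and Lyz2 (40.0% of the 10 measured, beside 8.84% of all measured genes). Measured probe sets of Csf1r ran from -1.49 to 0.48 in log2 ratio, the last with Dunn at its floor. Those of Lyz1 gave -2.22 and -0.32, each with LM8 at its floor. Lyz2 also had LM8 at its floor, so the folds of Lyz1 and Lyz2 are lower bounds. The largest part of both macrophage sums was Fcer1g, at 716 in Dunn and 387 in LM8, under 2-fold apart. Endothelial markers summed to 204 and 113, with Cdh5, Pecam1 and Tek under both floors and Vwf 2-fold lower. Epithelial markers summed to 166 and 86.6, with Cdh1 and Krt18 under both floors and Scgb1a1 at least 2.71-fold lower. The 3' to 5' signal ratio, a measure of RNA integrity, was 0.708 in Dunn and 0.789 in LM8 for Gapdh, and 1.26 and 1.16 for beta-actin. The part of growth state, of other cells or of RNA quality in the p53 pathway values was not tested. In whole-culture RNA, fewer cells expressing a gene and less RNA per cell cannot be told apart.

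Sequence before the transcript start was read for the members from the RefSeq windows of GRCm38.p6, 250 bases before to 50 after each start, which covered 30 of the 38 genes in 38 windows. A stretch matching the p53 consensus decamer, searched on both strands, occurred for 9 of the 30 genes (30.0%) and for 9.55% of all 27025 genes with a window. Of the 10 lower genes with a window, 3 had a match (Gadd45a, Ccng1 and Cdkn1a), and the others with a match were Aen, Ei24, Mdm2, Polk, Ppm1d and Sesn1. The stretches below show 3 lower genes and then 3 genes that differed little, with the matching decamers in capitals, 5′ to 3′ on the strand of the gene. They lie at chr17:29090886-29090957 (plus strand, Cdkn1a), chr11:40755442-40755491 (minus, Ccng1), chr6:67037418-67037467 (minus, Gadd45a), chr10:117710915-117710964 (minus, Mdm2), chr11:85311102-85311151 (plus, Ppm1d) and chr10:41887246-41887295 (plus, Sesn1).
Cdkn1a: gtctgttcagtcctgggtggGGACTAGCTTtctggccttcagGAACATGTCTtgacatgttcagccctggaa
Ccng1: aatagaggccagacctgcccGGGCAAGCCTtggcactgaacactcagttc
Gadd45a: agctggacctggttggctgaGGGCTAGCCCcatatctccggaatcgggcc
Mdm2: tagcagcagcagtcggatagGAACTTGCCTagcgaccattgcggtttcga
Ppm1d: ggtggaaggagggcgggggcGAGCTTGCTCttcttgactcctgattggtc
Sesn1: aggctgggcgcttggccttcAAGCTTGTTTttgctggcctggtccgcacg
Matches thus occurred both before genes that were lower in LM8 (log2 ratios of -1.22 for Cdkn1a, -1.14 for Ccng1 and -3.26 for Gadd45a) and before genes that were not (-0.15 for Mdm2, -0.07 for Ppm1d and -0.14 for Sesn1). A match is a description of the letters and not a binding site.

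The cAMP response element, TGACGTCA, was also searched, as a common promoter element of genes that answer to stress and growth signals. It occurred for 4 of the 30 genes and for 2.03% of all genes with a window. The stretches are shown for the lower genes Btg2 and Trp53inp2 and for the kinase gene Plk2, with the element in capitals, and the fourth gene was Ppm1d. They lie at chr1:134079294-134079341 (minus, Btg2), chr2:155381795-155381842 (plus, Trp53inp2) and chr13:110394962-110395009 (plus, Plk2).
Btg2: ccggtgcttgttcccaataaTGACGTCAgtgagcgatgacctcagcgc
Trp53inp2: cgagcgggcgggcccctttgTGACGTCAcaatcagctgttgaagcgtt
Plk2: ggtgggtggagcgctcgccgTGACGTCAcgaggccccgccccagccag
Their element starts 166, 41 and 62 bases before the transcript start. The log2 ratios of these genes were -1.24, -1.10 and 0.16.

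The regulators of p53 differed little between the lines. Mdm2, the ubiquitin ligase that marks p53 for degradation and is itself a p53 target, read 256 in Dunn and 232 in LM8 on its brightest probe set. On the next one they were 245 and 183, giving log2 ratios of -0.15 and -0.42, and its last probe set was under both floors. Mdm4, which binds p53 and blocks its activity, stood at 185 in Dunn and 190 in LM8. Its other measured probe sets gave 120 and 133, and 31.3 and 24.1, so the 3 log2 ratios of Mdm4 ran from -0.38 to 0.14. Neither gene of this pair came near a 2-fold difference on any measured probe set.

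Ppm1d, the Wip1 phosphatase that switches off damage signalling, read 108 in Dunn and 103 in LM8. Its second probe set read 118 and 70.4, a log2 ratio of -0.74, so its probe sets disagreed on the size of the difference. Trp63, which encodes the p53 relative p63, was above both floors, at 52.6 in Dunn and 68.7 in LM8. The other measured probe sets of Trp63 pointed the same way, with log2 ratios of 0.63 and 0.52, the last with Dunn at its floor. For Trp73, the other relative, both probe sets were under the floors, with signals from 4.55 down to 0.647, and give no ratio.

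The arrest targets showed the widest split, with members at both ends. Cdkn1a, which encodes the p21 inhibitor of cyclin-dependent kinases and is the classical arrest target of p53, had a signal of 1325 in Dunn and 567 in LM8. Its stretch above held 2 matches to the decamer pattern, starting 73 and 51 bases before the transcript start. Whether they act together as a site was not tested. Its second probe set read 175 and 84.9, and the log2 ratios were -1.22 and -1.05, so both put Cdkn1a a little over 2-fold lower in LM8. Gadd45a, a stress sensor that binds and activates a stress kinase, read 758 in Dunn and 79.4 in LM8, 9.55-fold lower on its only probe set and the largest difference among the genes with a decamer match. Its relatives did not follow. Gadd45g stood at 379 in Dunn and 469 in LM8, a log2 ratio of 0.31. Gadd45b was higher in LM8, at 36.9 and 76.9 on its brightest probe set (2.08-fold). A second probe set of Gadd45b read 28.7 and 55.3, and the last 23.6 and 22.4, so its log2 ratios ran from -0.08 to 1.06. Within the Gadd45 family the log2 ratios thus spanned 4.32, the widest of the families on the list.

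Tob1, Btg2 and Btg1 encode antiproliferative proteins that recruit the machinery which shortens messenger RNA tails. Tob1 read 1295 in Dunn and 523 in LM8, and 71.7 and 22.4 on its dimmer probe set, with log2 ratios of -1.31 and -1.68. Btg2 read 146 and 62.0, and 91.9 and 30.1, with log2 ratios of -1.24 and -1.61. Both were thus 2-fold lower on every probe set. Btg1 was the exception, at 1661 in Dunn and 1246 in LM8 and at 1429 and 1072 on the next probe set, a log2 ratio of -0.41 on each. Its weakest probe set had a log2 ratio of 0.08.

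Ccng1 encodes cyclin G1, which brings a phosphatase to Mdm2. It read 1297 in Dunn and 590 in LM8 (2.20-fold lower), and 645 and 297 on a further probe set with a log2 ratio of -1.12. The remaining probe set, at 1070 and 607, gave -0.82 and stayed under 2-fold. Ccng2, an unconventional cyclin linked to arrest, had probe sets of opposite sign, at 262 and 170 (log2 ratio -0.62) and at 125 and 147 (0.23), so it has no settled direction. Zmat3, an RNA-binding zinc finger gene, read 403 in Dunn and 148 in LM8, 2.72-fold lower on 1 probe set.

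The polo-like kinase genes Plk2 and Plk3, whose products act in stress and checkpoint responses, were at or near background in Dunn. Plk3 read 4.66 in Dunn, under the floor, and 51.0 in LM8, higher by at least 2.42-fold. Plk2 read 13.2 and 23.5, a log2 ratio of 0.16 with Dunn at its floor, and its second probe set was under both floors. Rprm, an inducer of arrest before mitosis, read 12.3 and 8.63 and was not measured.

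**Figure D2:**
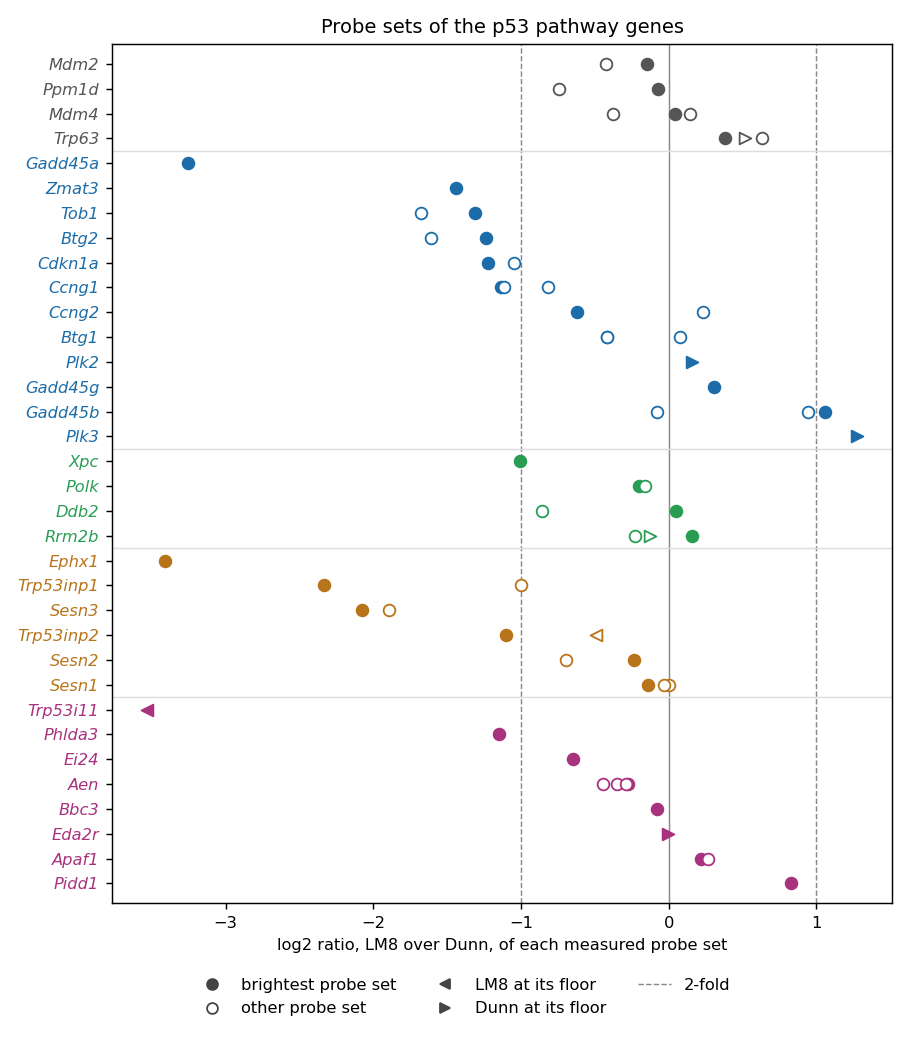
Log2 ratio of LM8 over Dunn for each of the 64 measured probe sets of the p53 pathway genes, in the same order as the signals. Filled symbols are the brightest probe set of a gene, open symbols its other probe sets, and triangles probe sets with 1 array at its floor, pointing to the side where the true ratio may lie. Probe sets of Sesn3, Tob1, Btg2 and Cdkn1a all lie beyond the 2-fold line on the left, whereas those of Trp53inp1 spread from -2.33 to -0.999 and those of Gadd45b from -0.08 to 1.06.

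Metabolic and stress targets held 3 of the 5 genes that were 4-fold lower. Ephx1, the microsomal epoxide hydrolase that detoxifies reactive epoxides, had a signal of 704 in Dunn and 66.2 in LM8, 10.6-fold lower on its only probe set. Trp53inp1, a nuclear protein gene acting in arrest, death and autophagy, read 391 in Dunn and 77.7 in LM8, 5.03-fold lower. Its dimmer probe set read 47.1 and 23.6, a log2 ratio of -0.999 that falls just short of 2-fold, so its size depends on the probe set and its direction does not. Trp53inp2, a relative needed for autophagy, read 272 and 126 (2.15-fold lower). A second probe set of Trp53inp2, at 26.6 in Dunn and under the floor in LM8, gave at least 1.41-fold.

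The sestrins, which restrain the growth regulator mTORC1 when nutrients are short, differed from one another. Sesn3 read 707 in Dunn and 167 in LM8, and 290 and 78.1 on its second probe set, with log2 ratios of -2.08 and -1.89. Sesn1, by contrast, read 308 and 280, 225 and 225, and 125 and 123 on its measured probe sets, with log2 ratios from -0.14 to 0.00. Sesn2 lay near it, at 238 and 202 on one probe set and 186 and 115 on the other, with log2 ratios of -0.24 and -0.70. The lower sestrin was thus Sesn3 alone by the 2-fold rule, and the family spanned 1.94 in log2 ratio.

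Among repair targets, only the lesion sensor gene Xpc reached the 2-fold rule, at 89.4 in Dunn and 44.4 in LM8. Its fold of 2.01 lay right at the threshold, and it was under 2-fold in each of the other 4 scalings. Ddb2, the partner sensor of ultraviolet lesions, had probe sets of opposite sign close to background, at 36.1 and 37.4 (log2 ratio 0.05) and at 44.9 and 24.8 (-0.86). Polk, a DNA polymerase that copies past damage, stood at 71.1 and 62.0 and, on its second probe set, at 33.6 and 30.1. Rrm2b, the p53-inducible subunit of ribonucleotide reductase, stood at 109 and 122, with a second probe set at 45.7 and 39.1. Polk and Rrm2b thus differed by at most 0.22 in log2 ratio in either direction on probe sets above both floors.

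The genes grouped as death targets were mostly close between the lines, with a pair of exceptions that do not encode core apoptotic effectors. Trp53i11, a p53-induced gene, read 219 in Dunn and only 9.55 in LM8, where it was under the floor. It was lower by at least 11.6-fold on its single probe set. Phlda3, whose product blocks membrane recruitment of the survival kinase Akt, read 613 and 277, 2.22-fold lower. Ei24, an endoplasmic reticulum protein gene, came next among the lower ones at 642 and 409, a log2 ratio of -0.65. Trp53inp1, which also acts in death, was counted with the metabolic targets. Among p53 targets outside the members, the death receptor gene Fas was at least 2.21-fold lower, from 41.9 in Dunn. Casp8 stayed under 2-fold, at a log2 ratio of -0.55. Fas and Casp8 were named after their values were seen.

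The effectors of mitochondrial death showed smaller differences. Bbc3, which encodes the BH3-only protein PUMA, read 132 in Dunn and 125 in LM8, and Apaf1, the core of the apoptosome, read 62.4 and 72.7 with a second probe set at 24.1 and 28.9. Pmaip1, which encodes the BH3-only protein Noxa, read 8.47 and 0.682 and Perp, a membrane protein gene, 0.381 and 6.08, all under the floors. Pidd1, a scaffold for caspase activation, read 35.2 and 62.6, a log2 ratio of 0.83 just short of the 2-fold rule. The 4 probe sets of the nuclease gene Aen had log2 ratios from -0.45 to -0.27, the brightest with signals of 395 and 327. Eda2r, a death receptor relative, read 9.64 and 21.0, next to the floor in LM8 and under it in Dunn.

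Agreement between probe sets is the only spread available for a single gene, and it reflects probe and transcript differences, not replicate error. Its SD in log2 ratio had a median of 0.26 over the 21 members with at least 2 measured probe sets and 0.30 over 5521 genes of the array. Of the 13 genes called lower, 7 had several measured probe sets, and all of them passed 2-fold for 4 of these genes (Cdkn1a, Tob1, Btg2 and Sesn3). Ccng1, Trp53inp1 and Trp53inp2 each had 1 measured probe set short of it, and the remaining 6 lower genes rest on a single probe set. Over the 64 measured probe sets, 18 were 2-fold lower and 2 were 2-fold higher, beside 7.79% and 5.91% of the 25144 measured probe sets of the array.

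The scaling of the arrays decided the calls that lay near 2-fold. Scaling on the 12 bacterial hybridisation controls, whose mean log2 ratio was -0.24, moved the median of all genes by 0.24, and a common array median moved it by 0.15. All genes then split into 1237 higher and 639 lower, and into 1025 higher and 775 lower, against 770 and 1046 in the scaling used here. The 2-fold lower members numbered 7 and 9 in these scalings instead of 13. Taken relative to the median of all genes, which no constant scaling changes, 12 of the 13 were 2-fold lower and Xpc was not, beside 7.53% of all genes. Gadd45a, Ephx1, Trp53i11, Trp53inp1, Sesn3, Zmat3 and Tob1 were 2-fold lower in all 5 scalings, and Gadd45b and Plk3 were 2-fold higher in all 5. For Gadd45b and Plk3 the scaling used here gave the lowest ratios (1.06 and 1.28). The other scalings only raised them, so staying 2-fold higher is no check of these calls.

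**Figure D3:**
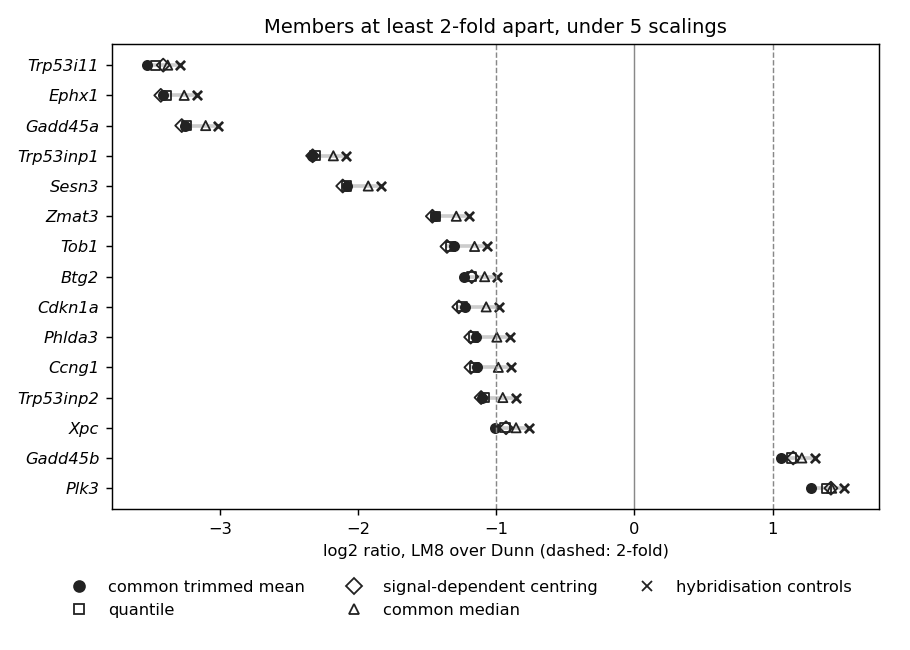
Log2 ratio of LM8 over Dunn for the 15 members at least 2-fold apart, under 5 scalings of the arrays shown by symbol, with dashed lines at 2-fold. Gadd45a stays between -3.28 and -3.01, whereas Cdkn1a (-1.27 to -0.98), Btg2 (-1.24 to -0.99), Phlda3, Ccng1, Trp53inp2 and Xpc cross the 2-fold line with the hybridisation controls. Phlda3, Ccng1, Trp53inp2 and Xpc also cross it with the common median, and Xpc with every scaling other than the common trimmed mean.

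Other genes of the pathway were read from further lists. Among 24 measured upstream regulators and cofactors, the 2-fold rule gave 3 lower and 1 higher gene in LM8, and the remaining 20 were under it (median log2 ratio -0.18). These shares, 12.5% lower and 4.17% higher, lie near the 8.84% and 6.51% of all measured genes. Ppp1r13b, a p53-binding cofactor gene, was at least 3.07-fold lower from 58.2 in Dunn. Hipk2, a kinase that phosphorylates p53, read 187 and 62.3 (2.998-fold lower), while its 5 probe sets ran from -1.58 to -0.20. Pml, the scaffold of nuclear bodies, was 2.03-fold lower on its brightest probe set. It reached a log2 ratio of 0.21 on another, which was near background, with Dunn at its floor. Nbn, a sensor of double-strand breaks, was 2.22-fold higher, from 171 to 380.

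The rule gave 5 lower and 3 higher genes among 27 further measured p53 targets and left 19 under it (median -0.24). Pltp, a phospholipid transfer protein gene, read 2990 in Dunn and 1020 in LM8 (2.93-fold lower), and the receptor kinase gene Epha2 read 488 and 208 (2.35-fold lower). Crip2 read 26.5 and 122, 4.60-fold higher. Ckap2, a mitotic spindle protein gene, read 200 and 531, 2.65-fold higher. The shares of 18.5% lower and 11.1% higher compare with 8.84% and 6.51% of all genes.

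Since Gadd45a, Btg2, Sesn2 and others also answer to other signals, 2 lists of such genes were read beside them. Of 19 measured stress and immediate early response genes, 4 were 2-fold lower in LM8 (21.1%, beside 8.84% of all measured genes) and 0 were higher (beside 6.51%), with a median of -0.39. Ratios above 0 were found for 7 of the 19, up to 0.80 for Jun, named after its value was seen. The early growth response gene Egr1 read 239 in Dunn and 34.5 in LM8 (6.94-fold lower). Ddit3, a death-linked factor of endoplasmic reticulum stress, read 1314 and 456 (2.88-fold lower), Fos 67.5 and 31.3, and the pseudokinase gene Trib3 1857 and 920. Of 13 measured FOXO target genes, which respond to loss of growth factor signals, 0 were 2-fold lower and only Pdk4 was higher, from 41.4 to 121 (2.92-fold), with a median of -0.12. The measured genes of both lists all came from outside the members. Their counts therefore leave out any member that itself answers to these signals.

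**Figure D4:**
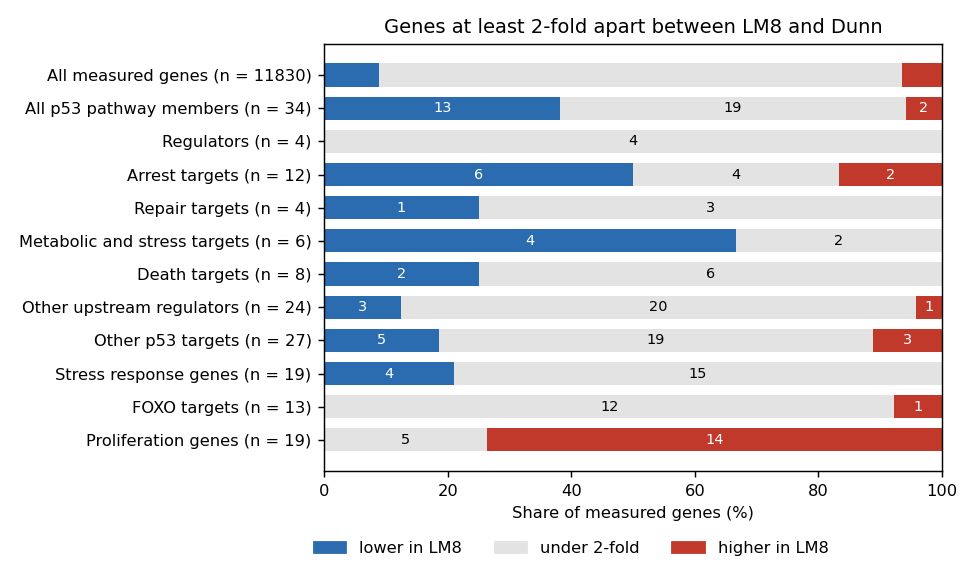
Share of measured genes at least 2-fold lower in LM8 (blue), under 2-fold (grey) and at least 2-fold higher (red), in percent, for all measured genes, the p53 pathway members, their role groups and 5 further lists, with counts printed in the bars and the number measured beside each name. The metabolic and arrest targets have the largest lower shares among the role groups (4 of 6 and 6 of 12), and the proliferation genes run the other way with 14 of 19 higher.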

How the data were processed

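Total RNA of the Dunn and LM8 lines was hybridised to 1 Affymetrix array each, with groups taken from the cell line label. The deposited values are linear intensities that the authors computed with MAS5, per the submitters' processing notes. Its version and settings are not given in the sources used here. Both columns had a 2% trimmed mean of 100 and no log, as read from the values.

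The 64 control probe sets were left out, and the trimmed mean of the others was made equal, with factors of 1.000 on both arrays. Symbols came from the platform annotation, updated by gene identifier to GRCm38.p6. Of its probe sets 34958 had 1 symbol, 932 had several and were not named, and 9160 others outside the controls have no name here. Floor, gene value and fold rule are given with the results. Detection calls were not used here.

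The members, lists, floor, fold rule and alternatives were chosen with earlier results of these data known. Every member may be named, and of each further list up to 4 genes with the largest log2 ratios past 2-fold. The alternatives that need all probe sets past 2-fold, or take ratios relative to the median of all genes, were added after seeing the data. The steps were tested on simulated data with 4-fold changes in genes well above the floor. That setting says nothing of calls near 2-fold or of genes near the floor. Promoter windows came from RefSeq. Python 3.11.15, numpy 2.4.6, pandas 2.3.3, statsmodels 0.14.6 and matplotlib 3.10.9 were used.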

Additional observations from a re-analysis of the deposited data

How the results depend on the processing

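With 1 array per line, no left-out array could be tried, and the depth of the evidence is the signal over background. No paired analysis was possible because each line has 1 array and no comparison has a test. Of 326 single-gene values under alternatives, 0 turned a called direction and 19 moved by at least 0.30 in log2 ratio, the spread between probe sets.

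The 13 lower members numbered 7 with the hybridisation controls, beside 5.4% of all genes, and 5 under a 3-fold rule, beside 2.84%. They numbered between 9 and 15 under the other alternatives run. The 9 came with a common median, beside 6.55% of all genes, and the 15 of 38 with no floor, beside 18.4%. Across the alternatives, from 2.84% to 18.4% of all genes were lower and from 2.49% to 14% higher. The counts by role and list below stand beside these shares. The 2 higher members numbered 0 under a higher floor (75th percentile), where neither was measured, and 0 under a 3-fold rule. With no floor and no filter they numbered 4. The count was 1 with a pseudocount at the array median, with probe sets averaged, or with all probe sets of a gene past 2-fold. The members' median log2 ratio was -0.66 under the higher floor, which left 24 measured genes.

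By role, the lower arrest targets numbered 3 with the hybridisation controls and 1 under the 3-fold rule. The higher ones numbered 0 with the higher floor, where they were not measured, or the 3-fold rule. They numbered 1 with the pseudocount, averaged probe sets or all probe sets required. The single lower repair target was lost (0) in the 4 other scalings, relative to the median of all genes, with the pseudocount and the 3-fold rule. With the higher floor it was not measured, so the count was also 0. Metabolic targets lower on all probe sets numbered 2. Lower death targets numbered 1 with a common median, the hybridisation controls or the 3-fold rule, and higher ones 1 with the hybridisation controls and 2 with no floor. With no floor, 1 regulator (Trp73, under both floors) counted as lower.

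In the further lists, lower upstream genes numbered 1 with the higher floor, averaged probe sets, all probe sets required or the 3-fold rule. Higher ones numbered 2 with a common median or without shared probe sets (names ending in _s_at, _x_at or _a_at), 4 with the hybridisation controls and 0 under the 3-fold rule. Lower further targets numbered 2 with a common median, 1 with the hybridisation controls, 3 with signal-dependent centring, the higher floor or relative ratios, and 0 under the 3-fold rule. Higher ones numbered 1 with the higher floor or the 3-fold rule and 5 with no floor. Lower stress genes numbered 2 with a common median, the hybridisation controls or all probe sets required, and 1 under the 3-fold rule. Higher ones numbered 2 with the hybridisation controls and 1 with no floor. Lower FOXO targets numbered 2 with no floor and 1 with the pseudocount. Higher ones numbered 2 with a common median, signal-dependent centring, the hybridisation controls or relative ratios, 3 with no floor, and 0 with the higher floor or the 3-fold rule. The proliferation counts stayed within 1.5 times under each alternative run.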
